A study of Arabidopsis thaliana with 42 samples.

Results

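RNA from unopened flower buds of Arabidopsis thaliana was compared between mtn1-1mtn2-1 plants and wild type (WT) after growth on spermidine, with 4 libraries per genotype, so that 8 of the 42 libraries of the series enter the main comparison. Plants were of the Col-0 background throughout. Seedlings were grown for 14 days under continuous light on half-strength MS medium with 100 µM spermidine, or on the same medium without it (mock), and were then moved to soil in long days. The labels do not say whether spermidine was given on soil, nor at which time of day buds were taken. The mutant carries the mtn1-1 allele of MTN1 (AT4G38800) and the mtn2-1 allele of MTN2 (AT4G34840). The mutant is a single allele combination here, and each library came from ground, pooled buds. The spread between the 4 libraries of a group may therefore be technical. The p-values measure such spread alone, estimated over all 24 bud libraries of 6 groups and not only over the 8 compared. The libraries called WT here are named WT in the authors' TPM table and G3 in their count table. For each of the 16 count columns with either name, the TPM column with the most similar profile across genes carried the opposite name and the matching medium and replicate number, and the count columns named G3 hold the high MTN1 level.

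MTN1 and MTN2 encode the methylthioadenosine nucleosidases. These enzymes split methylthioadenosine, which is left over when S-adenosylmethionine is used to make spermidine, spermine, thermospermine, ethylene and nicotianamine, and the product is recycled to methionine. Polyamines are abundant in flowers, thermospermine limits xylem formation, and nicotianamine carries iron through the phloem to pollen and seeds. Plants without this activity are known for reduced fertility and altered veins, and supplying spermidine is known to ease some of these defects.

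The 8 libraries held an estimated 18900000 to 23200000 sequenced fragments in the mutant and 19300000 to 22300000 in WT. Ribosomal RNA made up 1.66% to 2.57% of the counts in the mutant and 0.182% to 0.212% in WT, in libraries enriched for polyadenylated RNA. Of 25730 genes tested, 6932 (26.9%) were called at an adjusted p under 0.05 in edgeR's quasi-likelihood test with Benjamini-Hochberg adjustment. Of these, 3364 (13.1%) were higher in the mutant and 3568 (13.9%) were lower, and 1850 (7.19%) differed by at least 2-fold, with 807 higher and 1043 lower. For 7153 genes (27.8%) the 4 mutant libraries did not overlap with the 4 WT libraries. All adjusted p-values below come from that test, and a gene is called higher or lower when it passed it. Levels are given in CPM, the counts divided by TMM-scaled library totals, and fold changes are mutant over WT on spermidine unless mock is named. Markers of buds were present in both genotypes. Of 11 floral identity genes, 9 were not called, and the stamen and petal gene AP3 stood at 173, 177, 176 and 202 CPM in the mutant and 182, 177, 176 and 170.2 CPM in WT.

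**Figure D1:**
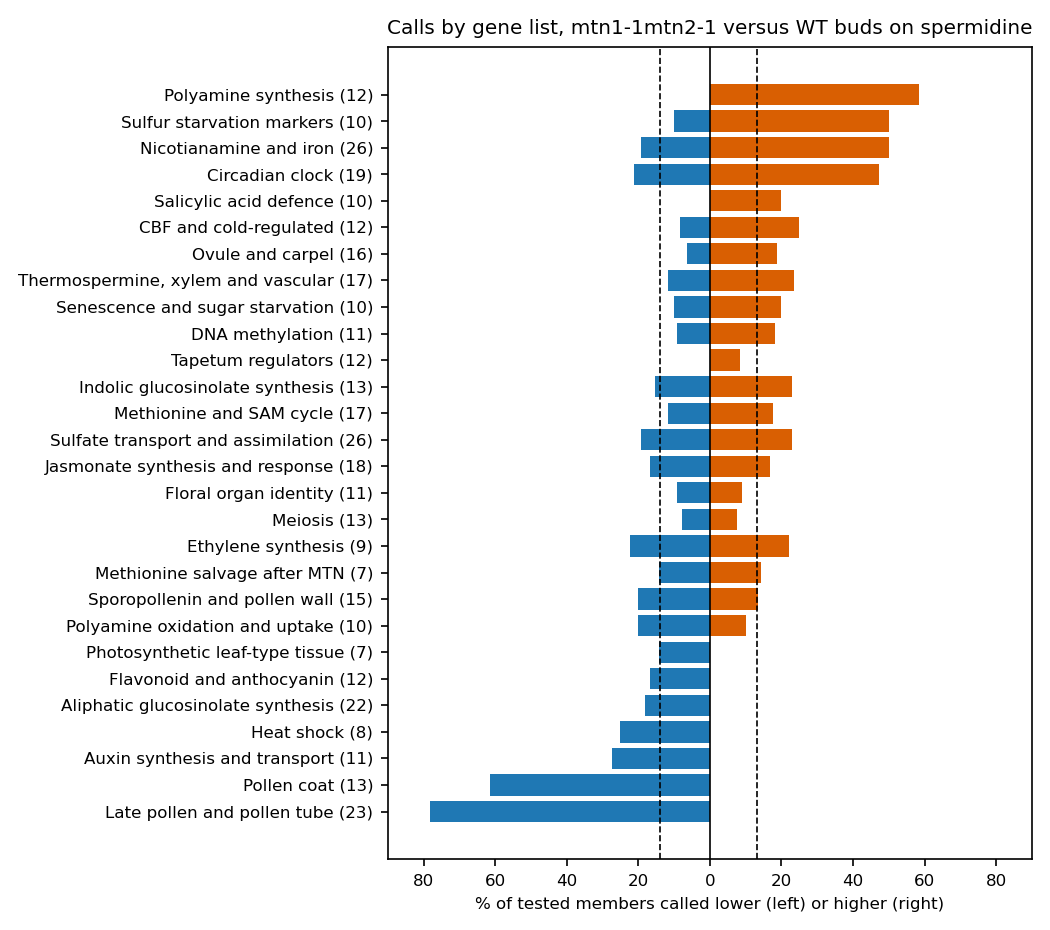
Share of tested genes called higher (right) or lower (left) in mtn1-1mtn2-1 than in WT buds on spermidine, in percent of the tested members of each gene list. The number of tested members stands beside each name, and dashed lines mark the share over all 25730 genes tested, 13.1% higher and 13.9% lower. The late pollen list reaches farthest to the left, with 18 of 23 lower and 0 higher.

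The disrupted genes are given as a description, since the MTN1 level was used to identify the WT libraries. MTN1 stood at 3.77, 2.7, 3.48 and 4.32 CPM in the mutant and 89.4, 92.2, 95.9 and 96.2 CPM in WT. The other libraries without a high MTN1 level, named WT in the count table and G3 in the TPM table, held 4.57 to 6.57 CPM on spermidine and form no part of the comparison. MTN2 stood at 0.142, 0.0977, 0.121 and 0.126 CPM in the mutant, at or below 3 fragments per library, and at 9.92, 9.09, 11.9 and 9.07 CPM in WT. The remaining enzymes of the salvage route act downstream of MTN. Of 7 tested, 2 were called, near the 26.9% called over all genes: ARD1 was higher (log2 fold change 0.31 with SE 0.06, adjusted p = 0.000723) and ARD3 was lower (log2 fold change -1.08 with SE 0.21, adjusted p = 0.000656), both acireductone dioxygenases, and the kinase MTK was at 24.2, 23.9, 26.3 and 23.3 CPM in the mutant against 23.8, 23.8, 25.2 and 24.7 CPM in WT.

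Genes of late pollen and the pollen tube were lower in mutant buds. Of 23 measured members, 18 were called lower and 0 higher, where 13.9% of all genes tested were called lower, and the median log2 fold change of the list was -1.02. The summed level of the list was 975 to 1524 CPM in the mutant and 2090 to 2908 CPM in WT. In whole, pooled buds, fewer pollen grains, less RNA per grain and a different mix of bud stages cannot be told apart. The pectin methylesterase gene VGD1, which acts in pollen tube growth, stood at 329, 522, 332 and 443 CPM in the 4 mutant libraries and at 843, 942, 818 and 689 CPM in WT. Every mutant library lay below every WT library, and the difference was 2.02-fold (log2 fold change -1.02 with SE 0.14, adjusted p = 2.61e-05). Mutant replicates 2 and 4 had the 2 highest mutant values in all 18 lower genes, and WT replicate 4 had the lowest WT value in all 18. VGD1 lies beside its near copy VGDH1, and how reads shared by such neighbours were counted is not given in the sources used here.

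The members can be ordered by role. Among wall genes, VGDH1 was 3.83-fold lower (log2 fold change -1.94 with SE 0.27, adjusted p = 2.01e-05) and PPME1, another pollen pectin methylesterase, 1.83-fold lower (log2 fold change -0.87 with SE 0.14, adjusted p = 0.000125). The arabinogalactan protein genes AGP6 and AGP11, both needed for pollen development, fell as well. AGP6 was at 69.4, 116, 76.8 and 93 CPM in the mutant and 174, 201, 178 and 160.2 CPM in WT, and AGP11 at 20.8, 39.2, 24.1 and 37.1 CPM against 83.5, 108, 86.3 and 73.3 CPM. Neither gene overlapped between the groups, and the log2 fold changes were -1.01 and -1.53. Signalling genes were lower too. The receptor kinase gene ANX2, whose product keeps the pollen tube wall intact, stood at 0.878, 3.82, 1.55 and 3.32 CPM in the mutant and 11.2, 19.1, 12.3 and 8.27 CPM in WT (log2 fold change -2.40 with SE 0.46, adjusted p = 0.000528). Its paralog ANX1 fell less, from a WT mean of 20.9 to 14 CPM (SD 3.13 and 3.03, n = 4 each, log2 fold change -0.58). The genes of the peptide ligands RALF4 and RALFL19 fell by 1.10 and 1.52 on the log2 scale. AT4G39110, a receptor kinase locus of the same family as ANX1, was 2.85-fold lower. Calcium handling followed the same direction, with the kinase genes CPK17 and CPK34 (log2 fold changes -1.95 and -2.02), the channel gene CNGC18 (-1.10) and the calcium pump gene ACA9 (-1.08). The pollen actins ACT4 and ACT12 (-1.02 and -0.82), the sugar transporter STP9 (-0.88) and the phosphatase PTEN1 (-2.26) were lower too.

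The 5 members that did not pass the test were transcription factors and a sperm protein. The germline regulator DUO1 stood at 1.18, 0.857, 1.68 and 1.5 CPM in the mutant and 1.82, 1.66, 1.72 and 1.25 CPM in WT, and the gamete fusion gene HAP2 at 0.839, 2.42, 1.53 and 1.91 CPM and 1.73, 1.71, 1.81 and 1.34 CPM. These ranges overlapped. The pollen tube regulator MYB101 had a log2 fold change of -0.33 (adjusted p = 0.124), and its relatives MYB97 and MYB120 were below 1 CPM in all 8 libraries. On mock medium, in libraries that share none with the spermidine comparison, 19 of the 23 genes were called lower and the median was -1.19. The ribosomal RNA share differed between the same groups, and its part in these differences was not tested. With the 4 rRNA genes left out of the fit, a setting chosen after seeing the data, 18 members were called lower. That setting only removes 4 genes, so it cannot address a difference in RNA quality or enrichment between the groups.

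**Figure D2:**
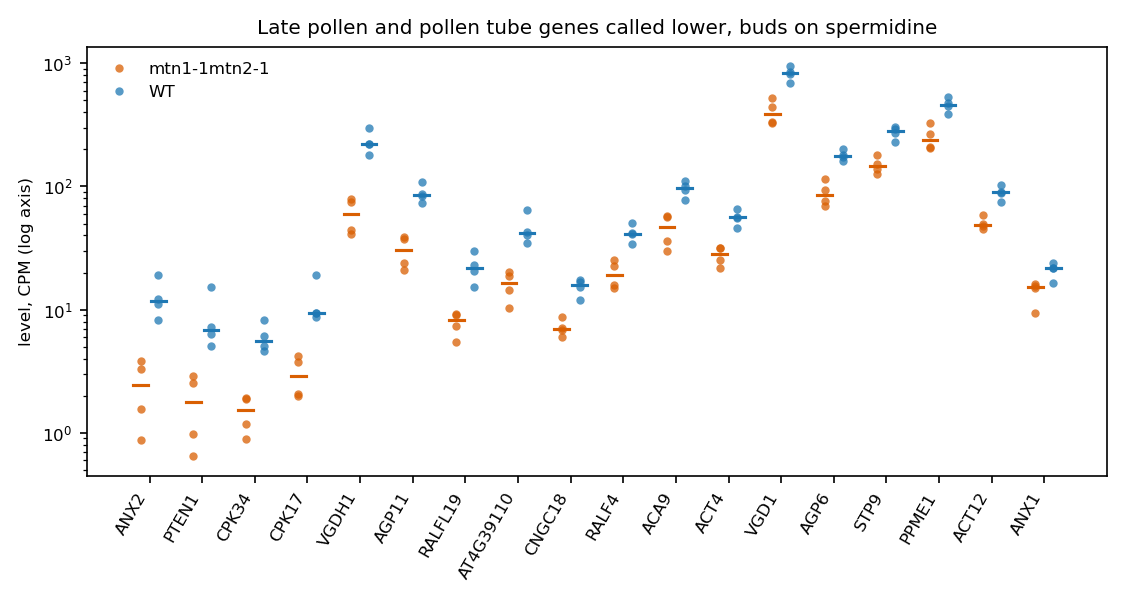
Level of the 18 late pollen and pollen tube genes called lower in mtn1-1mtn2-1, in CPM on a log axis, with 1 point per library (4 mutant libraries in orange, 4 WT libraries in blue, all on spermidine), and a short line at the median of each group. Genes are ordered by log2 fold change, from ANX2 to ANX1, and for each of the 18 the 2 sets of points do not overlap.

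Genes of the pollen coat, the pollen wall, the tapetum and meiosis, which act earlier in the anther, differed in part. Over all genes tested, 13.1% were called higher and 13.9% lower. Of 13 pollen coat genes, which the tapetum makes for the surface of the grain, 8 were called lower and 0 higher (median log2 fold change -0.395). The extracellular lipase gene EXL6 stood at 206, 206, 227 and 235 CPM in the mutant and 371, 374, 339 and 309.9 CPM in WT (log2 fold change -0.67 with SE 0.10, adjusted p = 6.52e-05), and its neighbour EXL4 was 1.51-fold lower. The coat oleosin gene GRP17 was at 4065, 4098, 4511 and 4021 CPM in the mutant and 6056, 5469, 5315 and 5121 CPM in WT (log2 fold change -0.40). Its call rested on WT replicate 1, the highest of the 8, without which the log2 fold change was -0.33, adjusted p = 0.0714. The EXL and GRP genes lie in tandem arrays, so that reads may be split between copies. Of 15 genes of the pollen wall, 3 were lower, namely BCP1, an arabinogalactan protein gene of tapetum and microspores (log2 fold change -1.89 with SE 0.45, adjusted p = 0.00323), CALS5, the callose synthase of the microspore wall (log2 fold change -1.05 with SE 0.13, adjusted p = 5.45e-06), and QRT3, which opens the tetrads (log2 fold change -0.84 with SE 0.15, adjusted p = 0.000359). CALS5 stood at 57.6, 76.1, 55.5 and 71.1 CPM in the mutant and 151, 145, 135 and 107 CPM in WT, with no overlap. The fatty acyl and polyketide genes of sporopollenin were not among the lower ones. ACOS5 was at 211, 144, 143 and 137 CPM against 157, 132, 139 and 143 CPM. The 2 members called higher, LAP5 and TKPR1, had log2 fold changes of 0.49 and 0.39. They lost their call in 4 fits that each left out 1 library, and were smallest without mutant replicate 1 (0.28 and 0.23). LAP5 (AT4G34850) lies near the disrupted MTN2 (AT4G34840), as does ADC2 (AT4G34710), named below. An effect of the mtn2-1 allele on genes near it was not tested. Of 12 tapetum regulators 11 were not called, and the early regulator DYT1 was at 0.788, 0.629, 0.793 and 0.286 CPM in the mutant and 0.524, 0.615, 0.955 and 0.681 CPM in WT. Of 13 meiosis genes, SYN1, the meiotic cohesin gene, was lower (log2 fold change -0.88 with SE 0.14, adjusted p = 9.13e-05), MSH4 was higher (log2 fold change 0.56 with SE 0.17, adjusted p = 0.0147), and 11 did not pass, among them DMC1 at 13.2, 12.2, 14.3 and 15.1 CPM against 14.6, 14.2, 13.5 and 15.7 CPM.

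The jasmonate-dependent regulators of stamen maturation, MYB21, MYB24 and MYB108, were lower in the mutant. MYB21 stood at 30.1, 54.4, 32.9 and 54.4 CPM in the mutant and 79.8, 78.4, 82.4 and 82.5 CPM in WT (log2 fold change -0.91 with SE 0.22, adjusted p = 0.00348). MYB24 was at 4.34, 10.01, 6.13 and 9.96 CPM against 17.2, 16.2, 19.1 and 15.6 CPM (log2 fold change -1.16 with SE 0.31, adjusted p = 0.00742), and MYB108 at 2.89, 6.38, 1.17 and 5.09 CPM against 15.6, 18, 12.7 and 14.9 CPM (log2 fold change -1.97 with SE 0.48, adjusted p = 0.00392). In all 3 genes the groups did not overlap, and replicates 2 and 4 of the mutant were again the higher ones. On mock medium the log2 fold changes were -2.0, -2.57 and -4.28. The interaction of genotype and medium did not pass for them (adjusted p = 0.169, 0.206 and 0.186). Of 18 jasmonate genes in all, 3 were higher and 3 lower, where 13.1% and 13.9% of all genes tested were. The 3 higher ones were allene oxide cyclases, which make the jasmonate precursor. AOC2 was at 8.41, 7.5, 8.07 and 6.27 CPM in the mutant and 1.47, 1.23, 1.64 and 2.27 CPM in WT (log2 fold change 2.19 with SE 0.22, adjusted p = 3.97e-07). AOC1 (log2 fold change 1.18 with SE 0.26, adjusted p = 0.00174) and AOC3 (log2 fold change 0.84, but 0.78, adjusted p = 0.0508 without WT replicate 1) are its tandem copies, so that their separate counts are uncertain. The other synthesis genes did not pass, among them LOX2 (0.04) and AOS (0.05), and neither did the response gene VSP1 (0.05).

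Of 16 ovule and carpel regulators tested, 3 were higher and 1 lower, near the 26.9% called over all genes. Those that did not pass include INO, a marker of the outer integument, at 7.06, 4.09, 4.95 and 8.3 CPM in the mutant and 5.77, 5.25, 5.78 and 5.92 CPM in WT. The stem cell gene WUS was lower (log2 fold change -0.64 with SE 0.12, adjusted p = 0.000405), at 13.8, 15.7, 12.9 and 14.8 CPM against 23.9, 23.1, 21.4 and 20.8 CPM. The auxin response factor gene ETT, which patterns the gynoecium, was 1.25-fold higher (log2 fold change 0.32 with SE 0.08, adjusted p = 0.00661), and ATS, which acts in ovule integuments, 1.4-fold higher (log2 fold change 0.49). Among the floral identity genes, AP1, which specifies sepals and petals, was lower (log2 fold change -0.37 with SE 0.08, adjusted p = 0.00111).

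Circadian clock genes differed in a pattern split in part by phase. Of 19 tested, 9 were called higher, where 13.1% of all genes tested were, and 4 lower. The higher ones are mostly genes that peak from afternoon to night, and the lower ones include the morning genes. FKF1, a blue-light receptor that promotes flowering in long days, stood at 32.6, 25.8, 24.7 and 6.01 CPM in the 4 mutant libraries and at 1.85, 1.96, 1.82 and 2.78 CPM in WT (log2 fold change 3.40 with SE 0.50, adjusted p = 3.46e-05). PRR5, a repressor of the morning genes, stood at 68.3, 80.6, 78.2 and 19.7 CPM and 7.92, 7.19, 6.78 and 6.53 CPM (log2 fold change 3.12 with SE 0.42, adjusted p = 1.61e-05). Every mutant library lay above every WT library for both, and replicate 4 of the mutant was the lowest of the mutant libraries, as it was for all 9 higher clock genes. Without that replicate the log2 fold changes were 3.74, adjusted p = 4.8e-06 and 3.44, adjusted p = 1.86e-06.

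The evening complex gene ELF4 was at 18.6, 9.21, 10 and 4.97 CPM against 2.99, 2.88, 2.75 and 3.2 CPM (log2 fold change 1.85 with SE 0.40, adjusted p = 0.0015). Its partners ELF3 and LUX were 1.6-fold and 1.46-fold higher (log2 fold changes 0.68 and 0.54). The response regulator genes TOC1 and PRR3 followed the same direction (log2 fold change 1.12 with SE 0.19, adjusted p = 0.00018, and log2 fold change 1.35 with SE 0.28, adjusted p = 0.00105). TOC1 stood at 90.2, 62, 66.4 and 47.1 CPM in the mutant and 28.4, 30.1, 31 and 32.4 CPM in WT, without overlap. GI, which acts with FKF1, was 1.73-fold higher (log2 fold change 0.79 with SE 0.17, adjusted p = 0.0013), and the histone demethylase gene JMJD5 had a log2 fold change of 0.74 that was lost when the fit held only the groups compared (0.75, adjusted p = 0.0823).

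The morning transcription factor genes LHY and CCA1 were lower. LHY stood at 22.1, 18.3, 17.1 and 19.6 CPM in the mutant and 76.5, 64.4, 49.7 and 51.8 CPM in WT (log2 fold change -1.65 with SE 0.36, adjusted p = 0.00169), and CCA1 at 22.6, 36.1, 34.7 and 22.3 CPM and 70.8, 70.3, 63.2 and 55.8 CPM (log2 fold change -1.17 with SE 0.26, adjusted p = 0.00168). Neither overlapped. The related activator gene RVE4 was 1.53-fold lower (log2 fold change -0.61 with SE 0.15, adjusted p = 0.00491), and CHE, whose product binds the CCA1 promoter, was 1.96-fold lower (log2 fold change -0.97 with SE 0.19, adjusted p = 0.000589). PRR7 and PRR9, which act between the morning and evening genes, did not pass (log2 fold changes 0.21 and 0.40). The time of day at which each library was harvested is not in the labels, and its part in these differences was not tested. On mock medium 6 clock genes were called higher and 4 lower, with FKF1 at a log2 fold change of 2.69, PRR5 at 2.41 and LHY at -1.27.

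Many evening-phased genes carry the evening element, AAAATATCT, in their promoters. It was searched on both strands in the 300 bases from 250 before to 50 after each annotated gene start (RefSeq annotation, TAIR10.1). Of 27443 promoters of nuclear protein-coding genes, 773 (2.82%) held at least 1 match, against 7 of the 19 clock promoters and 5 of the 9 clock genes called higher (PRR5, TOC1, FKF1, LUX and JMJD5). Among all genes called higher the share was 5.5% (170 of 3093), and among those called lower it was 2.11% (72 of 3410). Such a match is a description of the letters, not of binding. The 250 bases before the gene start are shown for the 4 clock genes that were higher and hold a match in this stretch, with the match in capitals. PRR5 and TOC1 hold it 187 and 151 bases before the start, FKF1 at 186 bases before, all in reverse orientation, and LUX at 53 bases before in forward orientation. The promoters of PRR3, ELF3, ELF4 and GI, also higher, hold no match in this window.
PRR5, chr5:8358547-8358796, minus strand: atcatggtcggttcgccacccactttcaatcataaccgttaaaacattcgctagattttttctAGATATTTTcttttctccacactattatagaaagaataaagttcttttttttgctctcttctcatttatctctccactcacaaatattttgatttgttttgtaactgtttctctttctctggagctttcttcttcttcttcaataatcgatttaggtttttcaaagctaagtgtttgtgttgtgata
TOC1, chr5:24674713-24674962, plus strand: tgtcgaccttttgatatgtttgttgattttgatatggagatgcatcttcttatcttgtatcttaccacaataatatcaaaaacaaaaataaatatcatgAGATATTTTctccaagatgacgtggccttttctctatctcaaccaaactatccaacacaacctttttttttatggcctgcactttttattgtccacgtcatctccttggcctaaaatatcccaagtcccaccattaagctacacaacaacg
FKF1, chr1:25508389-25508638, plus strand: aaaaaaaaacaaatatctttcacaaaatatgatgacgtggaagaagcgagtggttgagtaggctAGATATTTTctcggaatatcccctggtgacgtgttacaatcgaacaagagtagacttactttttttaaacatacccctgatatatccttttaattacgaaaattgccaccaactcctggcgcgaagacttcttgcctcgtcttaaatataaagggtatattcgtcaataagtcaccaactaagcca
LUX, chr3:17182792-17183041, plus strand: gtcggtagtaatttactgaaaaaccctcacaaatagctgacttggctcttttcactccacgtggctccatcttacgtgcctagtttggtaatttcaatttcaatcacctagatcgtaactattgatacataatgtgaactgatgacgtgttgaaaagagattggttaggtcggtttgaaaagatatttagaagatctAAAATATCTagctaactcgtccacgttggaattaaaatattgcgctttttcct

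**Figure D3:**
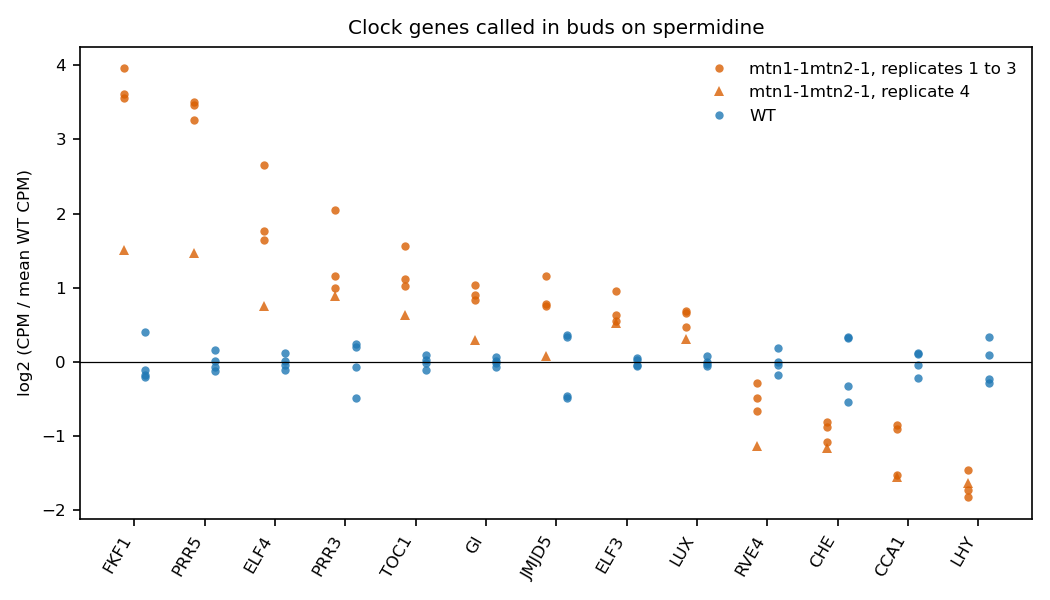
Level of 13 clock genes called on spermidine, as log2 of each library's CPM over the mean CPM of the 4 WT libraries, with mutant libraries in orange (replicate 4 as a triangle) and WT libraries in blue. Genes from FKF1 to LUX lie above the WT libraries and those from RVE4 to LHY below, except JMJD5, which overlaps, and the triangle is the lowest mutant point for each of the 9 higher genes.

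GRP7 and COR27, in no gene list here, were among the 12 largest rises of genes with a symbol. GRP7, a clock-regulated RNA-binding protein gene, was at 1520, 1279, 1511 and 989 CPM in the mutant and 242, 243, 269 and 329.5 CPM in WT (log2 fold change 2.29 with SE 0.23, adjusted p = 4.34e-07). COR27, a night-phased clock component that also responds to cold, was at 16.2, 12.8, 10.8 and 4.59 CPM against 1.88, 1.59, 2.1 and 1.55 CPM (log2 fold change 2.64 with SE 0.36, adjusted p = 1.7e-05). Neither gene overlapped between the groups. Of 12 CBF and cold-regulated genes, 3 were called higher and 1 lower, with 26.9% called over all genes. The 3 were the cold response regulators CBF1, CBF2 and CBF3, a tandem cluster. CBF3 stood at 10.3, 24.9, 17.8 and 3.23 CPM in the mutant and 3.34, 3.25, 2.14 and 2.23 CPM in WT (log2 fold change 2.36 with SE 0.58, adjusted p = 0.00444), so that mutant replicate 4 lay within the WT range. CBF1 and CBF2 had log2 fold changes of 2.98 and 2.52, both called, but the calls were lost without any of WT replicates 2 to 4 or of mutant replicates 2 and 3, and for CBF1 also without mutant replicate 1. Their WT replicate 1 was the highest WT library, and without it the values were 4.57 and 3.75. Their targets varied widely within the mutant. RD29A was at 55.6, 346, 472 and 39.9 CPM against 105, 108, 99.1 and 101 CPM, and did not pass (adjusted p = 0.133). KIN1 was lower with little spread, at 138, 150.5, 136 and 140.4 CPM in the mutant and 319, 350.3, 337 and 344 CPM in WT (log2 fold change -1.26 with SE 0.07, adjusted p = 8.05e-11). Its neighbour KIN2, also in the list, was not called, and reads may be split between such neighbours.

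Genes of the response to iron shortage were higher, and the iron storage genes FER1, FER4 and VIT1 lower, in mutant buds. Of 26 tested genes of nicotianamine and iron, 13 were called higher and 5 lower (median log2 fold change 0.487). The shares over all genes tested were 13.1% and 13.9%. The 4 regulators of the bHLH Ib group, which switch on iron uptake, were called higher by edgeR at low levels, but with limma on log2(TPM + 1) BHLH38, BHLH39 and BHLH101 were not (adjusted p = 0.224, 0.0822 and 0.156). BHLH39 was listed at 0 in all 4 WT libraries and stood at 0.827, 1.61, 1.12 and 0.309 CPM in the mutant, at least 6.71-fold higher when 3 fragments per library are taken as the floor (adjusted p = 0.00338). BHLH38, its tandem neighbour, was at 0.852, 2.03, 1.32 and 0.412 CPM against 0.0512, 0, 0 and 0.0454 CPM, and BHLH101 at 0.917, 0.282, 0.444 and 0.229 CPM against 0, 0.0879, 0.103 and 0 CPM, both at most a few fragments in WT. BHLH100 was at 2.12, 1.96, 1.44 and 1.17 CPM against 0.32, 0.198, 0.245 and 0.306 CPM (log2 fold change 2.64 with SE 0.63, adjusted p = 0.00342). The call of BHLH101 was lost without mutant replicate 1 (adjusted p = 0.0851), WT replicate 1 (0.0725) or WT replicate 4 (0.0704). Small loci of the iron response moved alike. AT2G30766 was at 17, 25.8, 19.4 and 4.53 CPM in the mutant and 0.358, 0.462, 0.916 and 1.45 CPM in WT (log2 fold change 4.38 with SE 0.80, adjusted p = 0.000344), and AT1G47395 at 5.36, 4.39, 2.47 and 2.87 CPM against 0.614, 0.736, 0.658 and 0.703 CPM (log2 fold change 2.47 with SE 0.62, adjusted p = 0.00492), the latter beside the similar locus AT1G47400 (log2 fold change 2.39, but 2.18, adjusted p = 0.055 without WT replicate 4).

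Transport and storage genes add to this. OPT3, which loads iron into the phloem, stood at 297, 210, 195 and 128 CPM in the mutant and 121, 117, 112 and 118 CPM in WT (log2 fold change 0.83 with SE 0.19, adjusted p = 0.00276), and the mitochondrial ferric reductase gene FRO3 at 45.7, 27.2, 27.1 and 23.2 CPM against 15.9, 14.4, 17.3 and 16 CPM (log2 fold change 0.95 with SE 0.18, adjusted p = 0.000435). Both had their highest value in mutant replicate 1 and no overlap. Of the 13 iron genes called higher, mutant replicate 1 was the highest mutant library in 7 and mutant replicate 4 the lowest in 9, the library that was lowest for all 9 higher clock genes. The ferritin genes FER1 and FER4, whose products store iron, were lower. FER1 was at 231, 167, 192 and 163 CPM in the mutant and 334, 322, 337 and 363 CPM in WT (log2 fold change -0.85 with SE 0.10, adjusted p = 1.82e-06), and FER4 was 1.44-fold lower (log2 fold change -0.53 with SE 0.08, adjusted p = 3.65e-05). VIT1, the vacuolar iron importer, fell from a WT mean of 2.56 to 1.06 CPM (SD 0.352 and 0.461, n = 4 each). The root uptake transporter gene IRT1 was also lower, at 11.3, 15.3, 13.9 and 18.9 CPM against 22.6, 24.6, 23.8 and 22.7 CPM (log2 fold change -0.66 with SE 0.16, adjusted p = 0.00483), and its regulator FIT did not pass (log2 fold change -0.42). Among the nicotianamine synthases, NAS2 was called higher, yet all 4 mutant libraries lay near or below 3 fragments, and the call was lost without WT replicate 2 (adjusted p = 0.0532). NAS3 and NAS4 did not pass, at 0.31, 0.217, 0.484 and 0.412 and 0.31, 0.163, 0.215 and 0.263 CPM in the mutant.

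Thermospermine synthesis was the part of polyamine synthesis with the largest difference. Of 12 tested synthesis genes, 7 were called higher and 0 lower (median log2 fold change 0.263), where 13.1% of all genes tested were called higher. The thermospermine synthase gene ACL5 stood at 95.9, 95.6, 93.4 and 93 CPM in the mutant and 41.1, 40.5, 43.9 and 42.8 CPM in WT (log2 fold change 1.17 with SE 0.09, adjusted p = 1.15e-08), with little spread in either group. BUD2, the S-adenosylmethionine decarboxylase gene that acts with ACL5, stood at 14.2, 12.5, 14.5 and 14.3 CPM against 7.9, 7.19, 7.12 and 6.41 CPM (log2 fold change 0.95 with SE 0.10, adjusted p = 1.1e-06). The spermidine synthase genes SPDS2 and SPDS1 were 1.44-fold and 1.11-fold higher (adjusted p = 1.81e-05 and 0.00834). The main decarboxylase gene SAMDC was 1.33-fold higher (log2 fold change 0.41 with SE 0.08, adjusted p = 0.000799). ADC2, the arginine decarboxylase gene at the entry of the route, was at 529.7, 545, 586 and 660.1 CPM against 352, 362, 385 and 422 CPM (log2 fold change 0.61 with SE 0.10, adjusted p = 1e-04), and ADC1 did not pass (0.12). The spermine synthase gene SPMS did not pass either (log2 fold change -0.18, adjusted p = 0.159). Of 10 oxidase and uptake genes, 1 was called higher and 2 lower, with 26.9% called over all genes. PAO4, a peroxisomal polyamine oxidase, was lower with no overlap (log2 fold change -0.50 with SE 0.10, adjusted p = 0.00072). The 7 that did not pass include the uptake transporter genes PUT3 and PUT5. Of 17 xylem and vascular genes, 4 were called higher and 2 lower, with 26.9% called over all genes. PXY, a receptor kinase of the cambium, was at 78.7, 69.4, 72 and 83.3 CPM against 52.5, 56.9, 57.8 and 60.9 CPM (log2 fold change 0.41 with SE 0.07, adjusted p = 0.00016), and the vein gene ATHB8 was 1.26-fold higher (log2 fold change 0.34 with SE 0.11, adjusted p = 0.0218). The secondary wall cellulose synthase genes CESA4, CESA7 and CESA8 did not pass (log2 fold changes 0.00, 0.33 and 0.11).

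Markers of sulfur shortage were higher at modest levels. Of 10 tested, 5 were called higher and 1 lower, where 13.1% and 13.9% of all genes tested were. BGLU28, a thioglucosidase gene, was at 14.2, 11, 9.67 and 38 CPM in the mutant and 2.93, 3.83, 4.44 and 5.08 CPM in WT (log2 fold change 2.16 with SE 0.36, adjusted p = 0.000148), with the highest value in mutant replicate 4, without which the log2 fold change was 1.54. LSU1 was at 3.12, 3.3, 3.24 and 3.93 CPM against 0.333, 0.44, 0.439 and 0.272 CPM (log2 fold change 3.19 with SE 0.52, adjusted p = 0.000101), and SDI1, a repressor of glucosinolate synthesis, at 6.52, 6.14, 4.07 and 6.99 CPM against 2.12, 2.21, 2.93 and 3.65 CPM (log2 fold change 1.12 with SE 0.24, adjusted p = 0.00115). These groups did not overlap. LSU3 was 2.32-fold higher, and its relative LSU4 went the other way (log2 fold change -1.13 with SE 0.20, adjusted p = 0.00027). Among 26 sulfate transport and assimilation genes, 6 were higher and 5 lower. The sulfate reductase gene APR1 was 1.54-fold higher (log2 fold change 0.63 with SE 0.11, adjusted p = 0.000289), at 69.1, 72.4, 65 and 88.3 CPM against 53.8, 49.3, 47.5 and 40.3 CPM. APS4, an ATP sulfurylase gene, was 1.54-fold lower (log2 fold change -0.62 with SE 0.10, adjusted p = 8.11e-05). The sulfite reductase gene SIR did not pass, at 171, 172, 175 and 210.5 CPM against 184, 178, 185 and 189 CPM. On mock medium the log2 fold changes were 1.10 for LSU1, 0.35 for SDI1 and -0.01 for APR1, none of them called, and the interaction did not pass for these genes (adjusted p = 0.238, 0.393 and 0.131).

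Of 17 genes of the methionine and S-adenosylmethionine cycle, 3 were higher and 2 lower, near the 26.9% called over all genes. The homocysteine methyltransferase gene HMT3 was at 14.9, 23, 15 and 20.7 CPM in the mutant and 38.2, 33.8, 37 and 34 CPM in WT (log2 fold change -0.96 with SE 0.18, adjusted p = 0.000462). CGS1, the first step of methionine synthesis, was 1.19-fold higher (log2 fold change 0.25 with SE 0.08, adjusted p = 0.0152). The synthetase genes SAM1 and SAM2 were not called (-0.12 and -0.12). Of 22 genes for aliphatic glucosinolates, which are made from methionine, 4 were lower and 0 higher, near the 13.9% called lower over all genes. The bile acid transporter family gene BAT5, which brings the keto acid precursor into plastids, was at 0.529, 1.65, 1.53 and 1.51 CPM against 4.23, 3.78, 4.31 and 2.26 CPM (log2 fold change -1.48 with SE 0.32, adjusted p = 0.00156). CYP83A1 had a log2 fold change of -1.0 that lost its call without WT replicate 1 (-0.86, adjusted p = 0.0664) or mutant replicate 1 (-0.85). Indolic glucosinolate genes went both ways, with CYP83B1 at 118, 51.8, 51.1 and 77.6 CPM against 41.3, 36.2, 37.1 and 46.3 CPM (log2 fold change 0.89 with SE 0.21, adjusted p = 0.00309) and CYP81F4 lower (log2 fold change -1.12 with SE 0.27, adjusted p = 0.00347).

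**Figure D4:**
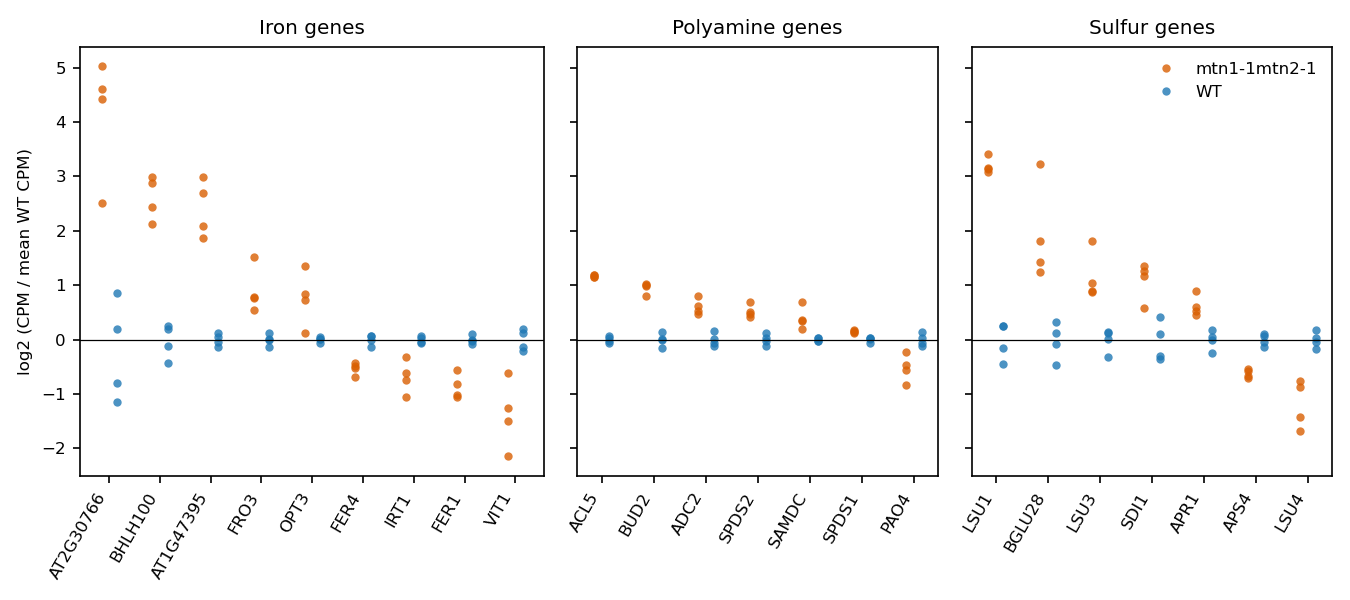
Level of selected called genes of iron (left), polyamines (middle) and sulfur (right), as log2 of each library's CPM over the mean CPM of the 4 WT libraries on spermidine, with 4 mutant libraries in orange and 4 WT libraries in blue. ACL5 and BUD2 show tight groups well apart, while iron and sulfur genes spread more within the mutant. FER1, FER4, IRT1, VIT1, PAO4, LSU4 and APS4 lie below WT.

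Ethylene and auxin genes showed a few differences. Of 9 tested ethylene synthesis genes, 2 were higher and 2 lower, with 26.9% called over all genes. The synthase gene ACS4 was at 0.878, 0.445, 0.645 and 0.401 CPM in the mutant and 1.66, 2, 1.33 and 1.16 CPM in WT (log2 fold change -1.38 with SE 0.29, adjusted p = 0.00118). Of 11 auxin synthesis and transport genes, 3 were lower and 0 higher, near the 26.9% called over all genes. The efflux carrier gene PIN3 stood at 34.5, 42.2, 35.4 and 43.7 CPM in the mutant and 85.4, 87.3, 98.3 and 101 CPM in WT (log2 fold change -1.26 with SE 0.17, adjusted p = 1.3e-05), PIN7 was 1.4-fold lower (log2 fold change -0.48 with SE 0.07, adjusted p = 2.44e-05), and the synthesis gene YUC6, which acts in stamens, 1.36-fold lower (log2 fold change -0.44 with SE 0.11, adjusted p = 0.00595).

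The largest differences over all genes were in part in loci of unknown function. Among the largest falls, the locus AT5G27505 was at 0.362, 0.13, 0 and 0.0229 CPM in the mutant and 13.8, 13.1, 14.4 and 12.8 CPM in WT, and AT1G64795 at 0.103, 0.293, 0.256 and 0.275 CPM against 7.66, 9.42, 10.9 and 9.11 CPM. The lipase family loci AT1G20135 and AT5G42170 were 13.2-fold and 12.4-fold lower. EXO, a gene of brassinosteroid-promoted growth, stood at 18.9, 9.85, 7.96 and 27.9 CPM in the mutant and 78.4, 119, 232 and 213 CPM in WT (log2 fold change -3.31 with SE 0.54, adjusted p = 0.000105). AAE11, of the acyl-activating enzyme family, was 9.28-fold lower (-3.21, or -3.84 without mutant replicate 4), BBX9, a B-box factor gene, 7.62-fold lower, and the MADS-box gene MAF5 6.9-fold lower. Further falls by the same rule included GDPD3, RALFL15, STP11, CHX6A, LCR1 and the pectate lyase gene AT59, with log2 fold changes from -2.61 to -3.03 apart from LCR1 at -2.59. The protease locus AT1G66210 had -3.03 (-3.64 without mutant replicate 2) and the glycosyl hydrolase gene GH9B11 -2.59, the latter not called without WT replicate 2 (-2.0, adjusted p = 0.0678). AT1G12310, of the calcium-binding EF-hand family, owed its place to WT replicate 1 (WT libraries 127, 2.99, 6.31 and 1.88 CPM, mutant 1.55, 1.59, 0 and 1.77 CPM), and without it the log2 fold change was -1.58, adjusted p = 0.292 and not called.

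Among the largest rises, the locus AT5G26270 was at 3.85, 6.12, 3.82 and 6.59 CPM in the mutant and 0.102, 0, 0 and 0.0907 CPM in WT, and AT5G35935 at 27.7, 24.6, 24.1 and 29.7 CPM against 1.25, 0.791, 0.181 and 0.613 CPM. The locus AT4G05380, annotated as a nucleoside triphosphate hydrolase, was 22-fold higher, and the threonyl-tRNA synthetase locus AT1G17960 14.9-fold higher. AT3G01345, AT5G45095 and the RNA locus AT1G67105 were 23.2-fold, 19.7-fold and 18.7-fold higher. The rRNA loci AT2G01010 and AT3G41768 belong to the ribosomal share given above. Of genes with a symbol, NIT2, a nitrilase gene, was at 11.4, 5.59, 6.17 and 7.59 CPM against 0.933, 0.626, 0.426 and 0.352 CPM (log2 fold change 3.72 with SE 0.63, adjusted p = 0.000157), in a cluster of near copies. NDB4, a mitochondrial NADPH dehydrogenase gene, was at 15.8, 12.7, 14.1 and 9.33 CPM against 1.01, 1.15, 1.28 and 0.964 CPM (log2 fold change 3.56 with SE 0.31, adjusted p = 7.49e-08). FWA, a homeobox gene that is silenced by DNA methylation in WT plants outside the endosperm, stood at 5.27, 5.85, 7.49 and 3.88 CPM in the mutant and 0.422, 0.912, 0.361 and 0.726 CPM in WT (log2 fold change 3.20 with SE 0.26, adjusted p = 1.68e-08). Another gene known to be silenced by methylation, SDC, was at 1.46, 1.05, 1.29 and 0.71 CPM against 0.281, 0.308, 0.413 and 0.147 CPM (log2 fold change 1.97 with SE 0.59, adjusted p = 0.0163). ROS1, a demethylase gene whose expression depends on methylation, was 1.48-fold lower (log2 fold change -0.57 with SE 0.08, adjusted p = 2.74e-05). Of the 11 genes of the DNA methylation list, which holds SDC and ROS1 but not FWA, 2 were higher, 1 lower and 8 not called. That is near the 26.9% called over all genes. The maintenance methyltransferase genes MET1 and CMT3 had log2 fold changes of 0.08 and 0.03. The remaining rises by the same rule were HIPP22 (2.71), DOT1 (2.36) and HB21 (2.06).

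In the remaining lists the counts can be read against the 26.9% called over all genes. Of 12 flavonoid genes 2 were lower and 0 higher, of 10 salicylic acid defence genes 2 were higher and 0 lower, with PR5 at 15.2, 17.1, 16.2 and 17.6 CPM against 7.38, 6.89, 7.39 and 8.88 CPM (log2 fold change 1.11 with SE 0.18, adjusted p = 0.000107), and of 8 heat shock genes 2 were lower. Of 10 senescence genes 2 were higher, NIT2 among them, and 1 lower. Of 7 markers of leaf-type tissue, 1 was called lower and 2 did not overlap between the groups (27.8% of all genes did not), with the small Rubisco subunit gene RBCS1A at 4943, 5087, 5326 and 4351 CPM in the mutant and 5035, 4941, 5177 and 5327 CPM in WT. Of the 6 seed storage markers 2 could be tested, at no more than a few fragments in either group.

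Most differences were shared with mock medium. There 8470 genes (32.9%) were called, 4159 higher (16.2%) and 4311 lower (16.8%). That split moved with the table, since limma on log2(TPM + 1) called 3002 higher and 5761 lower on mock. Of the 6932 genes called on spermidine, 4906 were called in the same direction on mock, which is 70.8% of the spermidine calls and 57.9% of the mock calls, and 13 were called in the opposite direction. The test of the difference itself, the interaction of genotype and medium, called 6 genes (0.0233%), 3 in each direction. At an unadjusted p under 0.05 it held 2829 genes, and DESeq2 called 275. The count fell to 0 without WT mock replicate 2 or 3, WT spermidine replicate 3 or 4, mutant mock replicate 3, or mutant spermidine replicate 2 or 3, and to 2 without WT mock replicate 4. It was 12 to 40 without WT spermidine replicate 1, mutant mock replicate 1 or 4, or mutant spermidine replicate 1 or 4, and 125 without mutant mock replicate 2. For the glycosyltransferase family gene AT3G55710 the mutant was lower on spermidine (-0.52) with no call on mock (0.13), an interaction of -0.65 (adjusted p = 0.0272). For MYB32, AT5G66580 and AT1G68360 the mutant was lower on mock (-0.75, -0.99 and -0.84) and not called on spermidine (0.05, -0.16 and 0.32). The chloroplast locus ATCG00390 was lower on spermidine (-0.81) and higher on mock (0.67), with an interaction of -1.47 (adjusted p = 0.0363). The sixth gene, AT5G60270, of the lectin kinase family, lies under 5 CPM and was chosen after its values were seen (interaction -1.78, adjusted p = 0.0272). EXO was at -3.31 on spermidine and 0.39 on mock, and its interaction did not pass (adjusted p = 0.053).

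**Figure D5:**
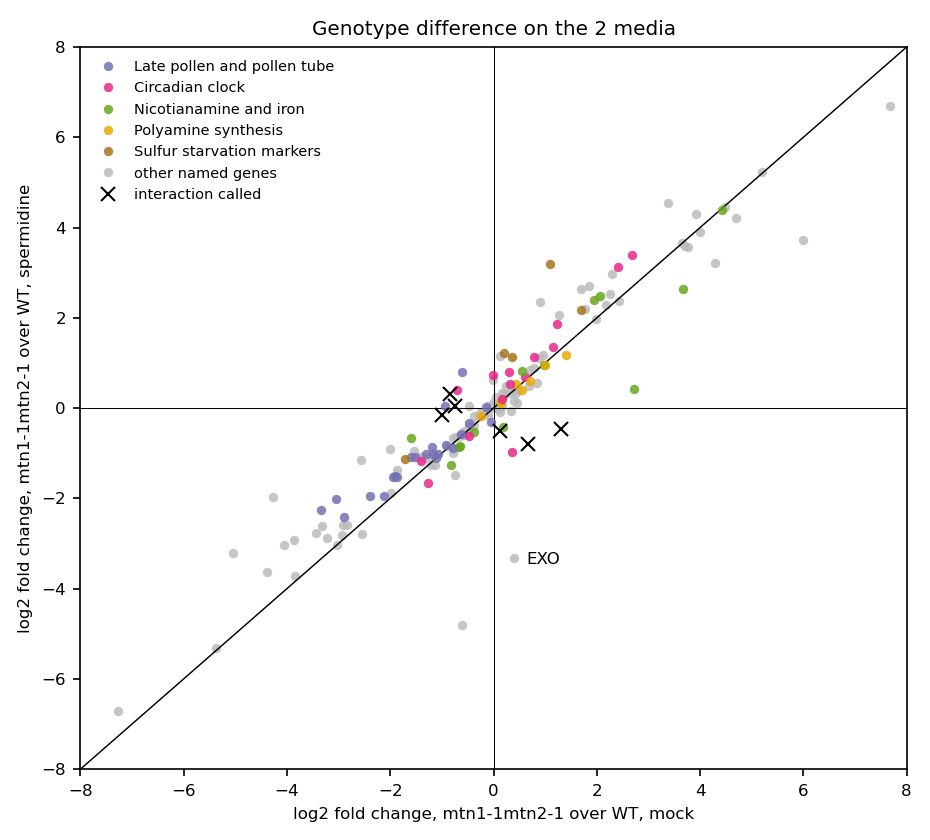
Log2 fold change of mtn1-1mtn2-1 over WT on spermidine (vertical) and on mock (horizontal) for the genes named in the text (MTN1, MTN2 and 4 iron genes listed near 0 in WT left out), with late pollen, clock, iron, polyamine synthesis and sulfur genes in colour and the 6 genes with an interaction as crosses. The line marks equal differences. The 2 comparisons share no library, most genes lie on the same side of 0 on both axes, and EXO lies far below the line.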

How the data were processed

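Flower bud RNA was measured by RNA-seq in 24 libraries (6 groups of 4), of which 8 form the main comparison. The authors deposited expected counts per gene (whole numbers, unscaled) and TPM. Trim Galore, STAR, StringTie and the build TAIR10 are named in the submitters' processing notes, and their roles, versions and strand setting are not given in the sources used here. Low values of the deposited counts gather near multiples of 3.99 units (40.6% of values from 1 to 40 lie within 0.5 of one). The share that whole numbers would reach by chance was not computed, and the other values lie off these multiples. The unit, and the fragment totals and floors that use it, are therefore estimates. On this estimate 3 sequenced fragments are about 12 units, taken as the floor. The count table held 37336 genes, of which 37051 matched the RefSeq gene table, and that of TPM held 27925 genes, with 27747 in both. WT was identified by the names of the TPM table, and 0 columns lacked a sample.

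Counts were filtered with filterByExpr, scaled by TMM and fitted with edgeR 4.0.16 (R 4.3.3, quasi-likelihood, all 24 libraries, 1 coefficient per group), and p-values were adjusted by Benjamini-Hochberg over all genes tested, with a threshold of 0.05. Since 1 fragment is estimated at several units, the counts may overstate the reads behind a value. A fit on counts divided by the units per fragment was an alternative. Other alternatives were DESeq2 1.42.0 (size factors, Wald test), other filters, only the groups compared, a replicate block, limma 3.58.1 on log2(TPM + 1) and log2(TPM + 0.1) with a mean TPM of at least 0.5, the names of the count table, each library left out in turn and, chosen after seeing the data, the rRNA genes left out. The procedure was tested on simulated data. Floors cover counting error only.

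Genes named are MTN1, MTN2, members of 30 gene lists (407 members, 394 tested), the 12 largest rises and 12 largest falls among called genes with at least 5 CPM in the higher group and no overlap between libraries, the same again over protein-coding genes with a symbol, and up to 5 interactions in each direction. A few list members stand for their list rather than all being named. Members and lists were chosen with earlier results of these data known. A gene of tapetum regulation whose symbol is shared with an unrelated gene was counted and not named. A few other results on single genes are not reported here. Seedling libraries were not used here.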

Additional observations from a re-analysis of the deposited data

Results flagged for a closer look

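Of 356 groups of 4 libraries examined for 1 library far from the other 3, 21 stood out, and chance picks out about 1 in 20 groups. In the mutant, replicate 1 was highest for ACOS5 (211.2 CPM) and PRR3 (11.47 CPM), and lowest for ANX1 (9.466 CPM) and BAT5 (0.5295 CPM). Mutant replicate 4 was highest for BGLU28 (38.01 CPM), LSU3 (10.75 CPM), AP3 (202.5 CPM) and SIR (210.5 CPM), and lowest for SYN1 (2.175 CPM). Mutant replicate 3 was highest for GRP17 (4511 CPM) and lowest for ATS (3.873 CPM) and AT1G12310 (0 CPM), and mutant replicate 2 was lowest for BUD2 (12.49 CPM). In WT, replicate 1 was highest for AT1G12310 (127.2 CPM), CBF1 (1.164 CPM) and CBF2 (2.34 CPM), replicate 2 for CHX6A (15.36 CPM), AT1G66210 (19.52 CPM) and CPK17 (19.08 CPM), and replicate 4 for FKF1 (2.779 CPM) and AOC3 (9.324 CPM).

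The genotype difference on spermidine minus that on mock passed the interaction test for 6 genes, with log2 values of 1.16 for AT1G68360, 0.80 for MYB32, 0.84 for AT5G66580, -0.65 for AT3G55710, -1.78 for AT5G60270 and -1.47 for ATCG00390. How far these calls depend on single libraries stands with the comparison of the media above.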

How the results depend on the processing

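On spermidine the count of 6932 called genes ranged from 5648 (only the groups compared in the fit) to 7559 (DESeq2 Wald test) over the alternatives under the names of the TPM table, and from 5783 to 7027 without 1 library; on mock the latter range was 7357 to 8495. Under the names of the count table the counts were 4450 and 5315, with 9 clock genes lower, 2 late pollen genes lower, 2 iron genes higher, 0 pollen coat genes lower and 0 sulfur markers higher. Those columns are other plants by their profile and MTN1 level. Without 1 library the lists held 9 to 11 clock genes higher and 4 lower, 18 late pollen and 7 to 8 pollen coat genes lower, and 9 to 14 iron, 7 polyamine and 5 to 6 sulfur genes higher. With limma on log2(TPM + 1), 8 iron genes were higher. Leaving out the rRNA genes gave 6981 calls on spermidine and 8560 on mock, and the 7 list counts of the preceding sentences (clock higher and lower, late pollen, pollen coat, iron, polyamine and sulfur) were unchanged, and the other lists were not recounted.

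The interaction gave 18 genes on counts divided by the units per fragment, 275 with DESeq2, 13 and 15 with limma on log2(TPM + 0.1) and log2(TPM + 1), 22 with a mean of at least 50 counts, 89 under the names of the count table, 1 with only the groups compared, and 0 to 125 without 1 library. Replicate numbers did not pair the libraries (correlation of deviations -0.0607 to 0.083), and the replicate block gave 6760 calls on spermidine and 0 interactions. Under the block, CBF1 and CBF2 lost their calls.

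Of the 175 genes named, 12 lost their call without at least 1 library, and the cause was not tested. Under the names of the count table, 65 of the 175 kept their sign but lost their call. Some genes called neither in the report nor under the alternative changed sign. Among genes called in either, signs turned only under the names of the count table, for 32 of the 175. The log2 fold changes there were -0.20 for ADC2, -0.19 for APR1, -0.08 for ARD1, 1.04 for AT1G64795, -0.81 for AT1G67105, -1.06 for AT5G26270, 6.45 for AT5G27505, -0.63 for BHLH101, 2.92 for CCA1, -3.35 for COR27, 0.34 for DMC1, -0.60 for ELF3, -2.94 for ELF4, 0.09 for FER1, -1.58 for FKF1, -0.39 for GI, 0.13 for GRP17, -2.03 for GRP7, -4.18 for JMJD5, 3.04 for LHY, -0.84 for LSU3, -1.04 for LUX, 1.02 for MTN2, 0.08 for PIN7, -2.72 for PRR3, 0.61 for RVE4, -1.37 for SDI1, -0.20 for SPDS1, -0.25 for SPDS2, 0.27 for SPMS, -1.65 for TOC1 and 0.07 for WUS. Genes under 1 CPM rest on few fragments, which limits the bHLH and nicotianamine synthase values most.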

Other observations

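Pseudogenes were called higher more often than protein-coding genes on spermidine. Of 559 annotated pseudogenes tested, 162 (29%) were higher and 50 (8.94%) lower in mtn1-1mtn2-1, against 3093 (13.2%) higher and 3411 (14.6%) lower of 23380 protein-coding genes. On mock medium 146 pseudogenes were higher and 64 lower. The difference between the classes was not tested, and how reads shared with near-identical copies were counted is not given in the sources used here. Of 953 long noncoding RNA genes, 49 (5.14%) were higher and 54 (5.67%) lower.

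The mutant libraries on spermidine varied more than the WT libraries. The median within-group SD of log2 CPM over genes tested was 0.213 in the mutant and 0.143 in WT. The main fit shared its estimate of spread over all groups, so its p-values do not take up this difference. With only the groups compared in the fit, 5648 genes were called in place of 6932. That fit again shared its estimate of spread between mutant and WT, and it used fewer libraries and tested 24220 genes. The lower count is therefore no measure of the difference in spread. Of the 4919 genes called on both media, 3142 (63.9%) had the larger absolute log2 fold change on mock, with a median absolute log2 fold change of 0.594 on spermidine and 0.626 on mock.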
